A study of Ovis aries with 44 samples.

Results

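*PARK7* and *UCHL1*, 2 genes known from inherited Parkinson disease, were followed in the *semimembranosus* of 22 lambs. They were chosen by gene symbol, as all probe sets annotated to *PARK7* or *UCHL1*, and the 2 symbols had been selected on a higher level in callipyge than in normal lambs in these same arrays. Each had 1 probe set, so the results concern 2 of 24016 probe sets and 2 of 9155 genes with a symbol of their own. *DLK1*, the gene beside the callipyge mutation, is given as the gene of comparison, through the brighter of its 2 probe sets except where the second is named.

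The *semimembranosus* is a hindquarter muscle that enlarges after birth in callipyge lambs. The callipyge allele is a single base change, and its effect depends on the parent that transmits it. Normal lambs (+/+) carry no callipyge allele, callipyge lambs (+/Cpat) inherited it from the sire, Cmat/+ lambs inherited it from the dam and C/C lambs from both. Each of 10, 20, 30 and 80 d of age was represented by 2 +/Cpat and 2 +/+ lambs, and 30 d also by 3 Cmat/+ and 3 C/C lambs. Per the labels the lambs nursed indoors until collection, whereas the methods of the study have lambs weaned and penned singly before 80 d, so diet and housing cannot be told apart from age at 80 d. The arrays did not follow any lamb over time. Biotinylated RNA of each lamb was read on its own bovine array, so sheep transcripts were read by probes of cattle sequence and a level can be compared between lambs but not between probe sets.

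*PARK7* encodes DJ-1, a small redox-sensitive protein whose loss causes a recessive, early form of Parkinson disease, and which has been reported to favour AKT signalling. *UCHL1* encodes a ubiquitin C-terminal hydrolase that is abundant in neurons and is used as a marker of nerve. It releases ubiquitin from small adducts and helps to hold the pool of free ubiquitin on which protein breakdown by the proteasome draws. *DLK1* is an imprinted gene expressed from the paternal allele that encodes a transmembrane protein of the Delta family, and its level in muscle is raised by the callipyge allele in *cis*.

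The PCR primers that the study designed for both genes on bovine sequence are given here. At least 1 primer of a pair lay inside the region that the probe set reads, so they mark the transcripts that the assays were designed for. No part is set in capitals, as no base of them bears on a result. By PCR in the *semimembranosus*, the study found a genotype difference for *PARK7* but not for *UCHL1*. It assayed *UCHL1* at only 1 age, after the onset of hypertrophy, and notes that sheep products were left unsequenced where an assay lacked significance.
*PARK7* forward primer: cgagtccgctgctgtga
*PARK7* reverse primer: tgacttccgttcatcattttgt
*UCHL1* forward primer: cagctgttctccttcggttct
*UCHL1* reverse primer: gaatgcttcgccatcaca

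RMA values, log2 levels normalized across arrays, were used unless MAS5 values, the intensities of single arrays, are named. The arrays of the first lamb of both genotypes at 20 d were dim, with median MAS5 intensities of 11.5 and 13.3 against 14.4 to 24.8 in the other arrays. The mean RMA value was 5.66 to 5.70 in 12 arrays, those at 30 d and the 2 dim ones, and 5.50 to 5.52 in the other 10, so values at 30 d are compared with other ages across this difference. The third Cmat/+ lamb stood apart from its group in *DLK1*, and results that rest on it are given with and without it. Transcripts of skeletal muscle fibres were abundant in both genotypes. The log2 of their mean level over 14 genes was 13.82 to 13.94 in the 8 +/Cpat and 13.81 to 13.92 in the 8 +/+ lambs. In whole muscle, more cells of a kind and more RNA in each cell cannot be told apart.

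*PARK7* was higher in every +/Cpat lamb than in every lamb of the 3 other genotypes. At 10 d, the +/Cpat lambs had *PARK7* values of 12.14 and 12.06 and the +/+ lambs had 10.97 and 10.88. At 20 d, the values were 11.69 and 11.79 in +/Cpat and 11.29 and 10.87 in +/+ lambs. This was the age at which the genotypes came closest, and the higher +/+ value was that of a dim array. At 30 d, the values were 12.26 and 12.19 in +/Cpat and 11.01 and 10.78 in +/+ lambs. At 80 d, they were 12.06 and 11.89 in +/Cpat and 10.66 and 10.74 in +/+ lambs. The genotypes were thus apart at all 4 ages. The lowest of the 8 +/Cpat values lay 0.40 on the log2 scale above the highest of the 14 other values.

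The mean difference of *PARK7* between +/Cpat and +/+ lambs over the 4 ages was 1.11 ± 0.08 on the log2 scale (SE, n = 8 and 8), a 2.16-fold higher level. By age it was 1.17, 0.66, 1.33 and 1.28 at 10, 20, 30 and 80 d, each ± 0.16 (SE). It is a description, since this difference chose the gene, and it placed *PARK7* 18th of all probe sets by the size of the rise. In that comparison 1.59% of probe sets were called higher and 1.68% lower in +/Cpat lambs (limma, adjusted p under 0.1), and in 0.0416% of probe sets, 10 in number, all 8 +/Cpat lambs lay above all 14 other lambs. The mean difference was 0.87 within the arrays of 30 d and the first 20 d lambs and 1.12 within the other arrays. Without the 2 dim arrays it was 1.17 ± 0.07 (SE).

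*UCHL1* rose less evenly. At 10 d, the *UCHL1* values were 5.66 and 6.40 in +/Cpat and 5.30 and 5.50 in +/+ lambs. At 20 d, they were 5.97 and 6.12 in +/Cpat and 5.51 and 5.21 in +/+ lambs. At 10 d the lower +/Cpat lamb was close to the higher +/+ lamb, and at 20 d the genotypes were farther apart than the lambs within them. At 30 d, the values were 6.89 and 7.75 in +/Cpat and 4.81 and 4.72 in +/+ lambs. At 80 d, they were 5.81 and 7.82 in +/Cpat and 4.89 and 5.00 in +/+ lambs. The lambs with the highest values of the series were therefore 1 of 30 d and 1 of 80 d, whereas the other +/Cpat lamb of 80 d was as low as those of 10 and 20 d. The lowest +/Cpat value exceeded the highest of the 14 other values by 0.15 on the log2 scale.

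The mean *UCHL1* difference over the 4 ages was 1.43 ± 0.23 on the log2 scale (SE, n = 8 and 8), a 2.70-fold higher level, again as a description. It was 0.63, 0.68, 2.55 and 1.87 at 10, 20, 30 and 80 d, each ± 0.45 (SE), and it placed *UCHL1* 11th by the size of the rise. It was 1.51 within the arrays of 30 d and the first 20 d lambs, 1.14 within the other arrays and 1.49 ± 0.27 (SE) without the 2 dim arrays. By RMA values the +/Cpat lambs differed more among themselves in *UCHL1*, with an SD of 0.85 over the 8 lambs of all ages, than the +/+ lambs, with an SD of 0.31. For *PARK7* these SDs were 0.20 and 0.20. The unequal spread of *UCHL1* was not seen in MAS5 values scaled to the same trimmed mean. Those ran from 8.28 to 10.41 on the log2 scale in the +/Cpat and from 6.33 to 8.30 in the +/+ lambs.

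**Figure D1:**
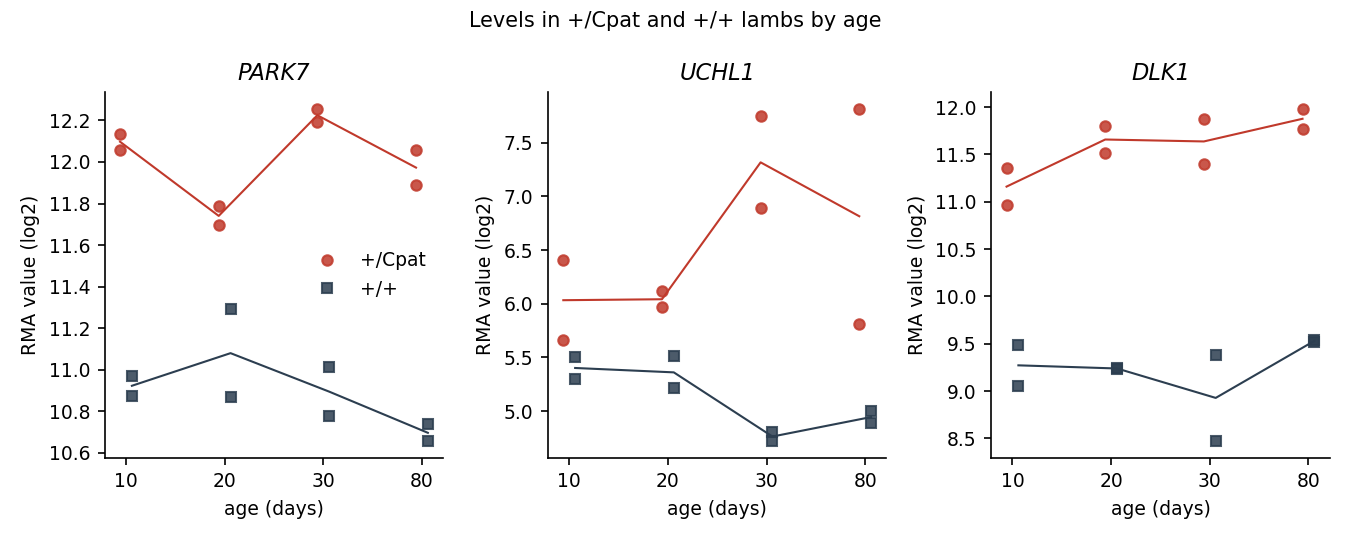
RMA values (log2) of *PARK7*, *UCHL1* and *DLK1* at 10, 20, 30 and 80 d, with 1 point for each of 2 +/Cpat (red circles) and 2 +/+ lambs (dark squares) at each age and lines through the means. The ages are evenly spaced and the vertical axes differ between genes; the +/Cpat points lie above the +/+ points of the same age in all panels, closest for *UCHL1* at 10 d.

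Age and the change of the genotype difference with age had not been used to choose the genes and were tested. The means over both genotypes at 10, 20, 30 and 80 d were 11.51, 11.41, 11.56 and 11.33 for *PARK7* and 5.72, 5.70, 6.04 and 5.88 for *UCHL1*. Neither gene passed the test for age in limma, with an adjusted p of 0.373 for *PARK7* and 0.768 for *UCHL1*, whereas 25.7% of all probe sets did. That share rests on the RMA values, since 2 probe sets were called for age with scaled MAS5 values. For the interaction of genotype and age, the adjusted p of limma was 0.9998 for both genes, and 0% of probe sets, 0 of 24016, were called. At an unadjusted p under 0.05, 783 probe sets passed, both genes among them, and a fit in which the variance was not moderated across probe sets called 0 as well. The larger *UCHL1* differences at 30 and 80 d and the smaller *PARK7* difference at 20 d are therefore not shown to differ from those at other ages after adjustment over all probe sets.

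At 30 d the levels were also read in lambs that carried a maternal callipyge allele. The *PARK7* values were 11.10, 11.10 and 11.16 in the Cmat/+ and 10.99, 11.14 and 11.12 in the C/C lambs. The *UCHL1* values were 5.15, 4.87 and 4.91 in the Cmat/+ and 5.26, 4.89 and 5.09 in the C/C lambs. Both genes were far below the +/Cpat lambs of this age in all 6 lambs, C/C lambs with a paternal callipyge allele included. The C/C and Cmat/+ lambs overlapped in both genes.

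The difference between C/C and Cmat/+ lambs used none of the +/Cpat and +/+ arrays by which both genes were chosen, and was tested for *UCHL1*. Its SE, its interval and the p of limma rest on a spread shared by all 4 genotypes at 30 d, those arrays included. The permutation p does not. For *UCHL1* it was 0.10 ± 0.19 on the log2 scale (SE, n = 3 and 3), with a 95% interval of -0.32 to 0.53 and an adjusted p of 0.965 in limma. An exact two-sided permutation test over the 6 lambs gave p = 0.60, where 0.10 is the smallest p that 3 against 3 lambs can give. In the same comparison 0% of probe sets were called, 0 of 24016 in limma, and 1187 had an unadjusted p under 0.05. Without the third Cmat/+ lamb the *UCHL1* difference was 0.07 ± 0.22 (SE, limma, adjusted p = 0.927). For *PARK7* the difference was -0.04 ± 0.10 (SE), given without a test because the study also named this gene from a contrast that held C/C lambs.

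The other contrasts at 30 d share lambs with the comparison that chose the genes and are values only. For *PARK7*, C/C minus +/Cpat lambs was -1.14 ± 0.11 on the log2 scale (SE, a 2.21-fold lower level), and Cmat/+ lambs lay 0.23 ± 0.11 above +/+ lambs, or 0.11 to 0.35 when 1 lamb was left out, the lowest without the second and the highest without the first +/+ lamb. For *UCHL1*, C/C minus +/Cpat lambs was -2.24 ± 0.22 (SE, a 4.71-fold lower level), and Cmat/+ lambs lay 0.22 ± 0.22 above +/+ lambs, or 0.13 to 0.27 when 1 lamb was left out, the lowest without the first Cmat/+ lamb, and 0.07 with scaled MAS5 values. No detection calls were used here and *UCHL1* is not shown to lie above background in lambs other than +/Cpat, so its folds and shares are of measured values only. With scaled MAS5 values, C/C minus +/Cpat lambs was -1.22 ± 0.24 for *PARK7* and -2.15 ± 0.63 for *UCHL1* (SE). The size of this gap beside its SE is not read as a test, since the +/Cpat lambs chose the genes. The gap between Cmat/+ and +/+ lambs was close to its SE for *UCHL1*.

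**Figure D2:**
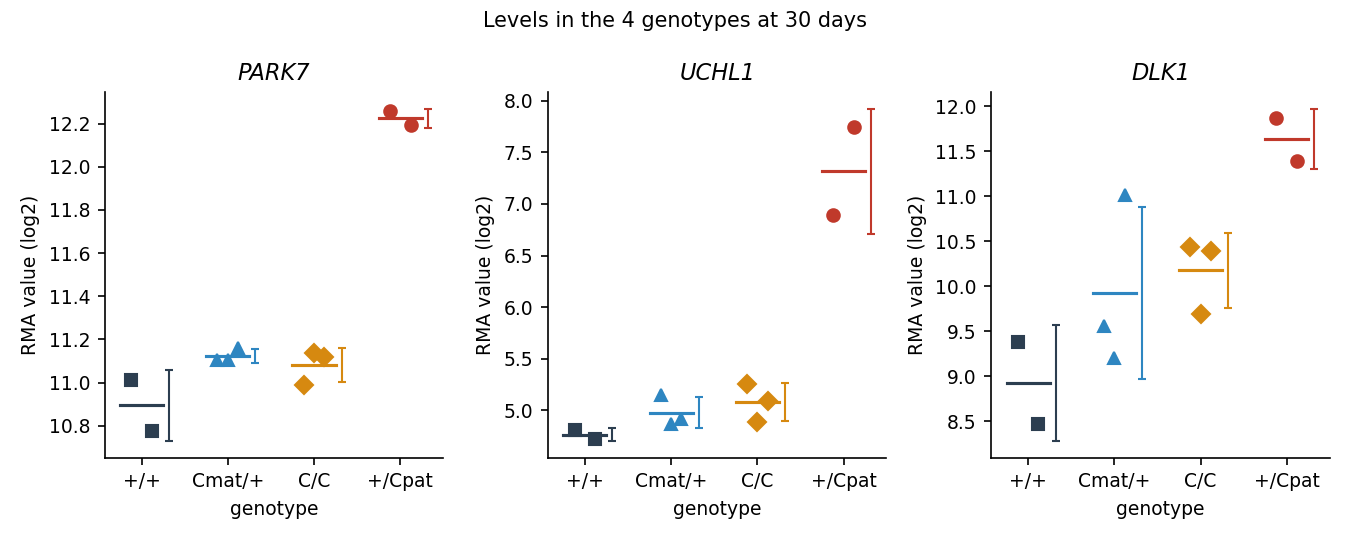
RMA values (log2) of *PARK7*, *UCHL1* and *DLK1* in the 4 genotypes at 30 d, with 1 point for each lamb (2 +/+, 3 Cmat/+, 3 C/C and 2 +/Cpat), a bar at the mean and an error bar of 1 SD beside it. *PARK7* and *UCHL1* of the Cmat/+ and C/C lambs lie near the +/+ lambs, whereas *DLK1* of the C/C lambs and of 1 Cmat/+ lamb lies between the +/+ and +/Cpat lambs.

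By the means at 30 d, *DLK1* itself ranked the genotypes as *UCHL1* did. Its C/C lambs stood farther above the +/+ lambs than in either gene. Over the 4 ages it was 10.97 to 11.98 in the +/Cpat and 8.47 to 9.54 in the +/+ lambs, a mean difference of 2.34 ± 0.13 on the log2 scale (SE, n = 8 and 8). The C/C lambs had *DLK1* values of 10.44, 9.70 and 10.39, above both +/+ lambs of 30 d at 9.39 and 8.47 and below both +/Cpat lambs at 11.88 and 11.40. The Cmat/+ lambs had 9.56, 9.21 and 11.02. The third Cmat/+ lamb was thus below both +/Cpat lambs of its age in *DLK1*, but above the lowest +/Cpat lamb of all ages, 1 of 10 d at 10.97. In the array of this Cmat/+ lamb *PARK7* was 11.16 and *UCHL1* 4.91. Its scaled MAS5 value of *DLK1* was 13.15 on the log2 scale, against 13.20 in that +/Cpat lamb of 10 d. The +/Cpat lambs of 30 d had 14.22 and 13.57. The third Cmat/+ lamb therefore stood close to the lowest +/Cpat lamb in both sets of values, but below those of its own age.

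Set against the rise from +/+ to +/Cpat lambs at 30 d, the rise from +/+ to C/C lambs came to 46.1% for *DLK1*, 14.04% for *PARK7* and 12.5% for *UCHL1* on the log2 scale. For Cmat/+ lambs the shares were 36.9%, 17.2% and 8.43%, and without the third Cmat/+ lamb 16.8%, 15.7% and 9.72%. When any 1 lamb of 30 d was left out, the C/C share ran from 35.2% to 54.99% for *DLK1*, from 5.71% to 21.02% for *PARK7* and from 8.96% to 16.2% for *UCHL1*, with both ends of *PARK7* set by 1 or the other +/+ lamb. By the second, dimmer *DLK1* probe set, C/C minus +/Cpat lambs was -0.10 ± 0.28 (SE), so the lower level of C/C lambs rests on the brighter one. With the second probe set the C/C share was 87.4%, or 69.96% to 104% when 1 lamb was left out. The Cmat/+ share was 6.53%, or -54.7% to 42.4%. These shares use the lambs that chose the genes and were not tested. Without the third Cmat/+ lamb, C/C minus Cmat/+ was -0.02 for *PARK7*, 0.07 for *UCHL1* and 0.80 for *DLK1*, against 0.25 for *DLK1* with it.

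Ranked over the 10 combinations of genotype and age, *PARK7* was highest in +/Cpat lambs of 30 d, followed by those of 10, 80 and 20 d, and these 4 means of 12.22, 12.10, 11.97 and 11.74 had no overlap between neighbours. The Cmat/+ and C/C lambs came next with 11.12 and 11.08, overlapping each other and the +/+ lambs of 20 d at 11.08. The +/+ lambs of 10, 30 and 80 d had the lowest means of 10.92, 10.89 and 10.70. For *UCHL1* the order began with +/Cpat lambs of 30, 80, 20 and 10 d, with means of 7.32, 6.82, 6.04 and 6.03, which all overlapped their neighbours. Below them were the +/+ lambs of 10 and 20 d at 5.40 and 5.36, then C/C, Cmat/+ and +/+ lambs of 80 d at 5.08, 4.98 and 4.94, each overlapping the next, and +/+ lambs of 30 d at 4.76.

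Whether a lamb with more *DLK1* also had more of either gene was asked within groups, because *DLK1* and both genes separate the +/Cpat from most other lambs and a coefficient over all lambs would only restate that separation. After subtraction of the mean of each genotype and age, *PARK7* and *DLK1* had a Pearson r of 0.21 over 22 lambs (p = 0.319) and a Spearman rho of 0.14 (p = 0.631), by exact permutation of lambs within groups. *UCHL1* and *DLK1* had r = -0.03 (p = 0.863) and rho = -0.11 (p = 0.686) by the same exact permutation test. Neither gene varied with *DLK1* among lambs of the same group beyond what permutation gave. Leaving out the 2 lambs farthest from the median *DLK1* deviation, both Cmat/+, which leaves the other lamb of that group without a partner, gave r = 0.20 and -0.01 over 19 lambs.

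Among the 8 +/Cpat lambs of all ages, exact permutation gave r = -0.24 (p = 0.565) and rho = -0.24 (p = 0.582) for *PARK7* with *DLK1*, and r = 0.22 (p = 0.596) and rho = 0.38 (p = 0.360) for *UCHL1* with *DLK1*. Among the 8 +/+ lambs, exact permutation gave r = 0.03 (p = 0.929) and rho = -0.29 (p = 0.501) for *PARK7*, and r = 0.18 (p = 0.729) and rho = -0.05 (p = 0.935) for *UCHL1*. Without the 2 lambs farthest in *DLK1*, r was -0.14 and -0.12 in the 6 +/Cpat lambs and -0.68 and -0.56 in the 6 +/+ lambs left. The second +/Cpat lamb of 80 d was highest in both *DLK1* and *UCHL1*, but neither gene followed *DLK1* over the lambs of a genotype beyond what permutation gave. Over the 14 lambs of the 3 other genotypes, a set added after the data had been seen, a permutation test gave r = 0.38 (p = 0.179) and rho = 0.37 (p = 0.197) for *PARK7* and r = 0.01 (p = 0.984) and rho = 0.05 (p = 0.856) for *UCHL1*. Without the +/+ lamb of lowest and the Cmat/+ lamb of highest *DLK1*, r was 0.12 and -0.12.

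**Figure D3:**
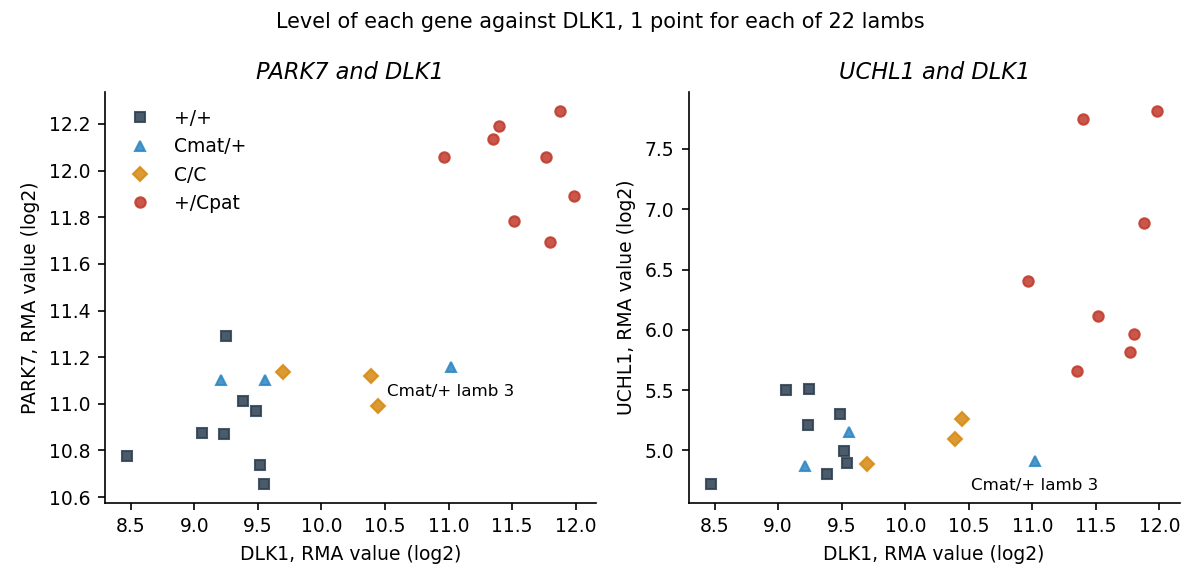
RMA values (log2) of *PARK7* (left) and *UCHL1* (right) against *DLK1* in 22 lambs, marked by genotype. The 8 +/Cpat lambs stand apart at the upper right; the Cmat/+ lamb 3 that is named in the plot lies within their range of *DLK1* but at the *PARK7* and *UCHL1* levels of the other genotypes.

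The 2 genes were also set against each other. Within groups, r was -0.26 (p = 0.460) and rho -0.28 (p = 0.357) over 22 lambs, by exact permutation. Exact permutation gave r = 0.23 (p = 0.567) and rho = 0.21 (p = 0.619) in the 8 +/Cpat lambs, and r = 0.57 (p = 0.134) and rho = 0.50 (p = 0.216) in the 8 +/+ lambs. Without the 2 +/+ lambs farthest in *PARK7*, r was 0.19. Within groups and without the 2 +/+ lambs of 20 d, r was -0.53 (p = 0.0677, exact permutation), and without the 2 lambs of 20 d among the +/Cpat lambs it was -0.16. Over the 14 other lambs a permutation test gave r = 0.24 (p = 0.400) and rho = 0.11 (p = 0.700), and r = -0.13 without the 2 farthest. In all, 12 relations with 24 coefficients were computed, and the smallest adjusted p (Benjamini-Hochberg) was 0.921.

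The MAS5 values of the same arrays gave both differences again, but resolved *UCHL1* less well. As deposited, the MAS5 intensity of *PARK7* was 1427 to 5124 in the 8 +/Cpat and 1378 to 2547 in the 14 other lambs, and the lowest +/Cpat value was that of a dim array. After each array was scaled to the same trimmed mean, the *PARK7* values were 14.14 to 14.96 on the log2 scale in +/Cpat and at most 13.88 in other lambs, without overlap. The MAS5 intensity of *UCHL1* was 28.5 to 203.8 in the +/Cpat and 9.3 to 48.3 in the other lambs, where it lay between the 30.8th and the 69.2nd percentile of the probe sets on its array. After scaling, the *UCHL1* value of the first +/Cpat lamb of 80 d, 8.28, fell below the 8.30 of a +/+ lamb of 10 d, and no other pair overlapped.

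On scaled MAS5 values the mean difference over the 4 ages was 1.21 ± 0.16 for *PARK7* and 1.38 ± 0.30 for *UCHL1* (SE, log2 of the value plus 16). They differed from the RMA differences by less than these errors. Over the 22 lambs the scaled MAS5 and RMA values had a Pearson r of 0.96 for *PARK7* and 0.83 for *UCHL1*, which largely reflects the genotypes and has no test. The lambs that were the higher of a pair by RMA were not always so by MAS5, as in the +/Cpat lambs of 10 d, with *UCHL1* intensities of 81 and 77.7 for RMA values of 5.66 and 6.40.

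**Figure D4:**
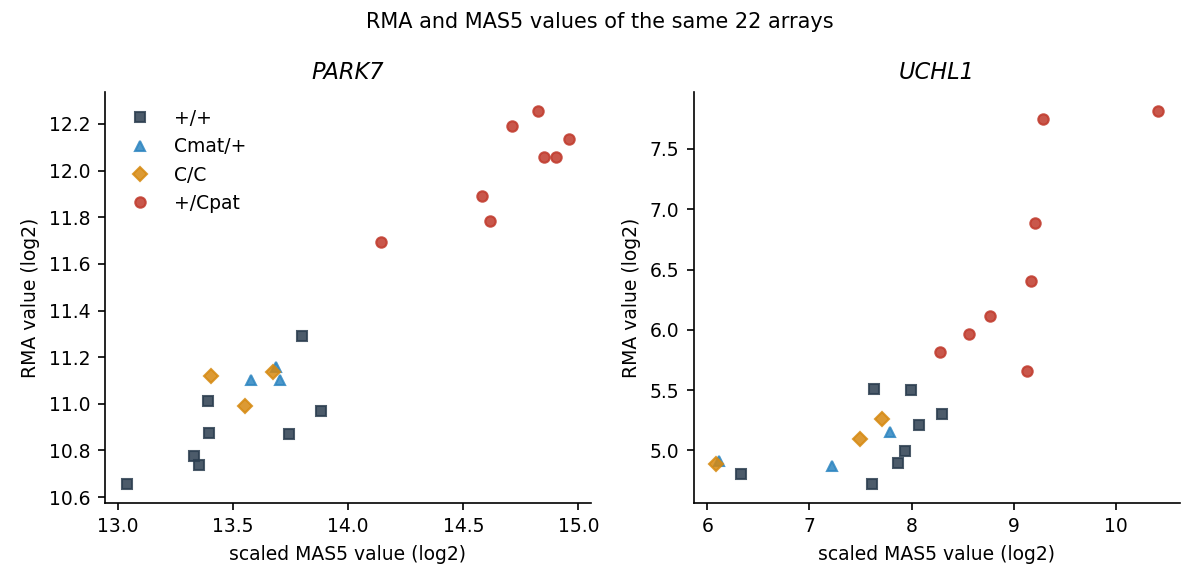
RMA values (log2) against MAS5 values after scaling of each array to 500 (log2 of the value plus 16), of the same 22 arrays, for *PARK7* (left) and *UCHL1* (right), marked by genotype. The +/Cpat lambs lie above the others on both axes for *PARK7*, and for *UCHL1* the lowest +/Cpat lamb overlaps the others on the MAS5 axis.

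The genes whose pattern was most like each of the 2 were named by Pearson r over the 22 lambs, as a description, since all these lambs share the separation by genotype. Those most like *PARK7* were *PCTP*, a phosphatidylcholine transfer protein (r = 0.94), *METTL21E*, a muscle methyltransferase (r = 0.91), *ATG4A*, a protease of autophagy (r = 0.89), *CRABP2*, which binds retinoic acid (r = 0.89), and *ROCK2*, a kinase that acts on the cytoskeleton (r = 0.89). In all 5 the +/Cpat lambs lay above all 14 other lambs. Within groups their r with *PARK7* was 0.28 to 0.54. Those most like *UCHL1* were *CRABP2* (r = 0.83), *PCTP* (r = 0.81), *PARK7* itself (r = 0.80), *PIR*, an iron-binding nuclear protein (r = 0.78), and *PLCB1*, a phospholipase C (r = 0.77). In 3 of these 5 the +/Cpat lambs lay above all others, and within groups their r with *UCHL1* ran from -0.26 for *PARK7* to 0.53 for *PLCB1*. *CRABP2* and *PCTP* stood on both lists.

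Other genes of the pathways that *PARK7* and *UCHL1* belong to were read from lists. Over 7 lists with 171 measured genes, *PSMD14* being on 2 of them and the 2 genes themselves set aside, 3 were higher and 5 lower in +/Cpat lambs (limma, adjusted p under 0.1) and 163 did not pass. Over all 9155 genes with a symbol of their own, 2.11% were higher and 2.56% lower, so the lists as a whole were close to the background. The differences of the 171 genes lay between -0.68 and 0.65 on the log2 scale. All 8 calls kept their direction in 32 alternatives but were lost with MAS5 values, without moderation of the variance and without the lambs of 10 d, and 1 of 8 held without those of 80 d.

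Of the 13 other Parkinson disease genes, 0 were higher and 1 was lower, with a median difference of 0.02 on the log2 scale against -0.01 over all genes. *PINK1*, the mitochondrial kinase whose loss also causes a recessive form, was lower by a log2 difference of -0.44 ± 0.12 (SE, limma, adjusted p = 0.0781), from a mean of 8.05 in +/+ to 7.60 in +/Cpat lambs. That call held in 4 of 16 fits without 1 lamb and was lost without the first lambs of 20 d (adjusted p = 0.172 in limma). *HTRA2*, a mitochondrial protease, had a difference of -0.14 ± 0.07 (SE) and did not pass.

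Of 28 genes of the AKT and mTOR pathway, 1 was higher and 1 lower, with a median difference of 0.04. *GSK3B*, a kinase that AKT inhibits, was higher by 0.45 ± 0.09 (SE, limma, adjusted p = 0.0249), at 0.35 to 0.56 in each age. *EIF4EBP1*, the repressor of translation that mTOR inactivates, was lower by a log2 difference of -0.68 ± 0.13 (SE, limma, adjusted p = 0.0129), at -1.02 to -0.42 in each age. Both calls held without any 1 lamb. *IGF2*, a growth factor upstream of the pathway, and *EIF4E*, the cap-binding factor that *EIF4EBP1* restrains, had differences of 0.47 ± 0.15 and 0.29 ± 0.10 (SE) and did not pass.

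Of 40 genes of the response to oxidative stress, in which DJ-1 acts, 1 was higher and 3 were lower, with a median difference of -0.06. *GCLM*, a subunit of the enzyme that begins glutathione synthesis, was higher by 0.51 ± 0.12 (SE, limma, adjusted p = 0.0419). *TXNRD2*, the mitochondrial thioredoxin reductase, was lower by a log2 difference of -0.41 ± 0.09 (SE, limma, adjusted p = 0.0312). The peroxidases *PRDX3* and *PRDX2* were lower by -0.36 ± 0.09 and -0.40 ± 0.11 (SE, limma, adjusted p = 0.0719 and 0.0723). The call of *GCLM* held in 13, of *TXNRD2* in 16, of *PRDX2* in 7 and of *PRDX3* in 5 of 16 fits without 1 lamb.

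No relative of *UCHL1* passed the test. The other ubiquitin C-terminal hydrolases *BAP1*, *UCHL3* and *UCHL5* had differences of -0.07 ± 0.07, 0.07 ± 0.10 and 0.04 ± 0.11 (SE). Of 40 other deubiquitinases, 0 passed in either direction, with a median difference of 0.00. The smallest p among them belonged to *CYLD*, *USP47*, *PSMD14* and *USP11*, with differences of 0.39, 0.28, 0.29 and -0.21. Of 16 ubiquitin precursors, activating enzymes and muscle ubiquitin ligases, 0 passed in limma, with a median difference of 0.12, among them *UBA1* at 0.24 ± 0.08, *FBXO40* at 0.27 ± 0.11, *MDM2* at 0.17 ± 0.08 and *FBXO32*, the ligase atrogin-1, at 0.65 ± 0.29 (SE). Of 32 proteasome subunits, 1 was higher and 0 lower, with 26 above 0 and a median difference of 0.14. The higher one was *PSMB7*, a subunit of the catalytic core, by 0.38 ± 0.10 (SE, limma, adjusted p = 0.0633), a call that held in 5 of 16 fits without 1 lamb. *PSMB5*, *PSMC2* and *PSMA1* had differences of 0.29, 0.29 and 0.33 and did not pass.

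**Figure D5:**
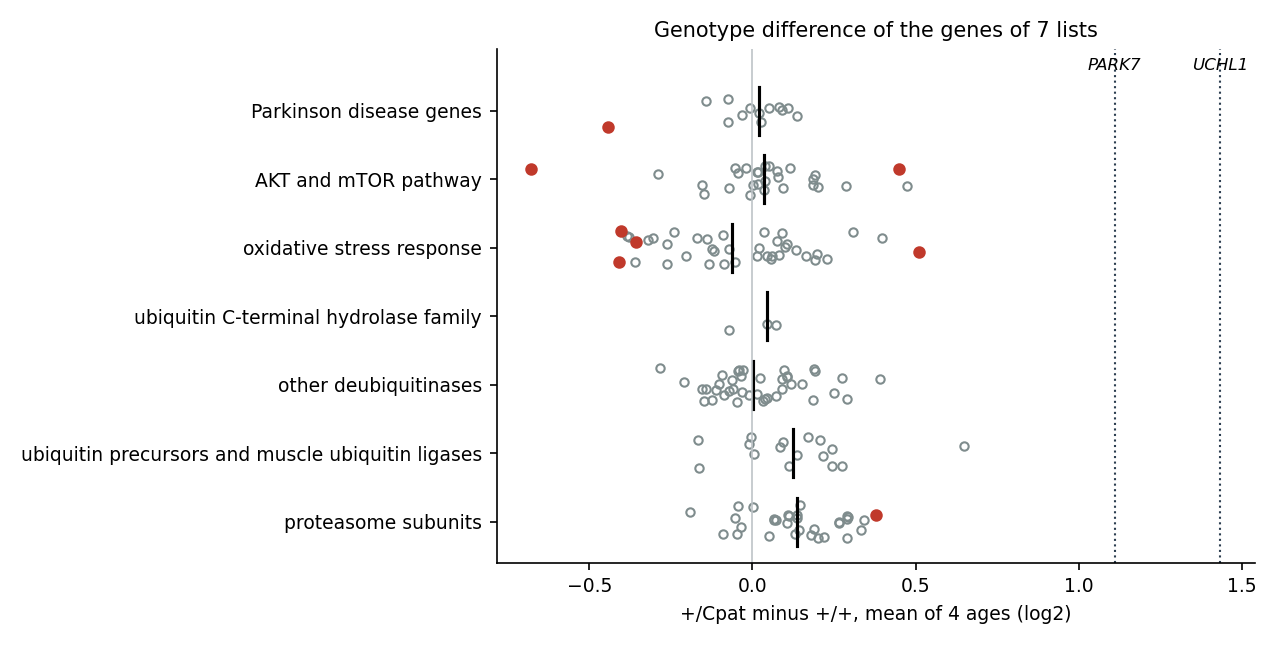
Difference between +/Cpat and +/+ lambs, as the mean of 4 ages on the log2 scale, of the genes of 7 lists without *PARK7* and *UCHL1*, whose differences are the dotted lines. Each circle is a gene, filled where limma's adjusted p was under 0.1, each black bar is the median of a list, and the vertical spread within a list carries no information; 8 circles are filled and all lie between -0.68 and 0.51.

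Because *UCHL1* marks nerve, the transcripts of nerve and of other cells were read beside it. Of 14 neuron markers 0 passed in either direction, with a median difference of 0.01, and the log2 of their mean level was 4.61 to 4.81 in +/Cpat and 4.64 to 4.86 in +/+ lambs. The neurofilaments *NEFL* and *NEFM* and the neuronal growth protein *GAP43* differed by 0.03 ± 0.08, 0.05 ± 0.09 and 0.08 ± 0.08 (SE). The level of the neuron list lay below the median RMA values of these arrays, 5.24 to 5.44. The lack of a call among such low values does not show that nerve was unchanged. The part of nerve in the *UCHL1* difference was not tested. Of 8 Schwann cell markers 0 passed, with ranges of 5.76 to 6.004 and 5.79 to 6.15. Of 10 genes of the neuromuscular junction and denervation, 1 passed, the receptor subunit *CHRND*, higher by 0.35 ± 0.09 (SE, limma, adjusted p = 0.0736), with ranges of 6.03 to 6.57 and 6.08 to 6.75.

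Among the other cells, 1 of 11 genes listed for satellite cells and myoblasts was higher, by 0.48 ± 0.14 (SE, limma, adjusted p = 0.0995). It was *MYH8*, a perinatal myosin and so not a marker of satellite cells alone. Its difference was 1.44, 0.80, 0.04 and -0.38 at 10, 20, 30 and 80 d, each from 2 lambs of a genotype. No probe set passed the test for the interaction of genotype and age, so a change of its direction with age is not shown. The level of the list was 9.21 to 9.74 in +/Cpat and 9.33 to 9.79 in +/+ lambs. It was dominated by *DES*, with means of 12.74 and 12.82, which is also on the list of fibre markers. That level therefore does not measure satellite cells. Of 14 fibre markers 1 was lower, the slow myosin *MYH7*, by a log2 difference of -0.57 ± 0.13 (SE, limma, adjusted p = 0.0365). Of 15 endothelial markers 1 was lower, the growth factor receptor *FLT1*, by a log2 difference of -0.31 ± 0.08 (SE, limma, adjusted p = 0.0828), and 0 of 15 lay above 0 against 47.6% of all genes, with ranges of 7.16 to 8.15 and 7.13 to 8.25. Of 15 fibroblast markers 2 were lower, the matrix protein *DPT* by -0.49 ± 0.12 and the collagen *COL1A1* by -0.52 ± 0.14 (SE, limma, adjusted p = 0.0569 and 0.0937), with ranges of 9.18 to 10.54 and 9.996 to 10.45. Of 9 adipocyte markers 1 was lower, the lipoprotein lipase *LPL*, by -1.07 ± 0.09 (SE, limma, adjusted p = 3.16e-05), with ranges of 5.92 to 6.38 and 6.04 to 6.80. Of 10 leukocyte markers 0 passed, with ranges of 5.36 to 6.06 and 5.19 to 6.03. Over 33 alternatives the adipocyte list had 1 call in each, whereas the lists of *CHRND*, *MYH8* and *FLT1* each had 0 calls in that direction in 21, that of *MYH7* in 7 and that of the fibroblasts in 14, where the count ran from 0 to 6. Of the 105 genes of the 9 marker lists, 2 were higher and 5 lower, against 2.11% and 2.56% of all genes with a symbol of their own. With MAS5 values all marker lists other than that of adipocytes had 0 calls. The part of these shifts in the *PARK7* and *UCHL1* differences was not tested.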

How the data were processed

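Total RNA of the *semimembranosus* of 22 lambs was read on bovine Affymetrix arrays, 1 for each lamb. The authors deposited MAS5 intensity values, without scaling between arrays, and log2 values from RMA, a method that normalizes the probes of several arrays jointly. Per the labels the tools were MAS5, GCOS and RMA, and neither their versions nor which arrays were normalized together are given in the sources used here. Groups were taken from the labels, which call the lambs biological replicates. Gene symbols came from the platform annotation, in which 13292 probe sets had 1 symbol, 86 several and 10638 none listed.

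RMA values were fitted in R 4.3.3 with limma 3.58.1 (lmFit, eBayes), with 8 group means for the 16 arrays of +/Cpat and +/+ lambs and 4 for the 10 arrays at 30 d, and p-values were adjusted (Benjamini-Hochberg) over 24016 probe sets, without 112 controls, at 0.1. Age and the interaction were tested by moderated F-tests. No filter on low values was applied, so both genes entered every fit of all probe sets. A lamb left alone in its group was assumed to vary like the others. MAS5 values were scaled to a trimmed mean of 500 (2% trimmed at each end), with 16 or 1 added before log2. The steps were tested on simulated data. The number of arrays limits the precision. Genes named were both members, *DLK1*, the 5 genes most alike over 22 lambs, and up to 4 genes of each pathway list with the smallest p, through the brightest probe set with 1 symbol. Marker genes were named after their values were seen. The 2 genes and the lists were chosen with earlier results of these data known. Alternatives were the scaling, a further quantile normalization, the variance model, array weights, the prior, a replicate block, all 22 arrays in 1 fit, a term for the array set, brighter probe sets, a threshold of 0.05, and leaving out lambs or ages, of which leaving out both dim arrays together and the alternatives to the share of the rise were chosen after seeing the data. The PCR values of the study were not used here.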

Additional observations from a re-analysis of the deposited data

How the results depend on the processing

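Under all alternatives run, *PARK7* and *UCHL1* stayed without a call for age (adjusted p of limma from 0.135 to 0.836 and from 0.102 to 0.951) and for the interaction (0.436 to 0.999978 and 0.337 to 0.999978), as did *UCHL1* for C/C minus Cmat/+ (0.878 to 0.9998). Their genotype differences kept their direction, at 1.04 to 1.26 and 1.06 to 1.70. At 30 d, MAS5 values with quantile normalization gave *PARK7* differences of 1.53 for +/Cpat minus +/+ and -1.33 for C/C minus +/Cpat, and *UCHL1* 2.26 for +/Cpat minus +/+, which was 2.27 with scaling alone. Leaving out 1 lamb gave 2.13 to 2.98 for +/Cpat minus +/+ and -2.66 to -1.81 for C/C minus +/Cpat in *UCHL1*.

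The counts of probe sets higher, lower and changed with age were 381, 403 and 6180. They were 31, 20 and 2 with scaled MAS5 values, 17, 11 and 5 with 1 added in place of 16, and 41, 21 and 2 after quantile normalization, and 145, 103 and 3385 without moderation of the variance. They were 229, 196 and 3685 at a threshold of 0.05. Higher and lower were 635 and 750 with a term for the array set, 228 and 128 without 10 d, 197 and 217 without 30 d and 85 and 57 without 80 d. Age gave 4015 among probe sets above the median level, 9728 without 20 d, 922 without 30 d and 3050 without 80 d. Without 1 lamb the counts ran from 202 to 771, from 165 to 779 and from 3481 to 10693. The highest were without the second +/Cpat lamb of 20 d, where the interaction gave 150 against 0 without other lambs, and the lowest without the second +/Cpat lamb of 30 d. The interaction gave 1 with 1 added to MAS5 values and without 30 d, and C/C minus Cmat/+ gave 1 with array weights, with all 22 arrays and without the second Cmat/+ lamb, and otherwise 0. Counts of proteasome subunits called higher ran from 0 to 9. The causes were not tested.

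Counts also moved by over 1.5 times without the first +/Cpat lamb of 30 d (age 3608), the +/+ lambs of 30 d (lower 216 and 245, age 3689 and 3681), the first +/Cpat lamb of 80 d (229 and 202), the +/+ lambs of 80 d (248 and 205, 231 and 195), the second +/+ lamb of 10 d (233 and 217), the first +/Cpat lamb of 10 d (lower 241) and the second +/+ lamb of 20 d (lower 625).

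The correlation of *PARK7* with *DLK1* turned to -0.24 in the +/Cpat lambs. In the other 31 alternatives it stayed positive, at 0.03 to 0.40. It was 0.40 in the 10 lambs at 30 d (p = 0.375, exact permutation). With the second *DLK1* probe set it was 0.37 (p = 0.0730, exact permutation). The correlation of *UCHL1* with *DLK1*, at -0.03, turned to 0.0116 after a further quantile normalization. It was 0.22 in the +/Cpat, 0.18 in the +/+ and 0.00638 in the 14 other lambs. With the second *DLK1* probe set it was 0.0930, and in lambs of 10 and 80 d 0.0402. Without 1 lamb it ran from -0.18 to 0.0493.

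Equal replicate numbers did not pair the lambs, since the correlations of their deviations ran from -0.11 to 0.31. With the replicate number as a block, the interaction gave 1 probe set, the adjusted p of limma was 0.344 and 0.688 for age in *PARK7* and *UCHL1*, and no other call named here changed. With 2 or 3 lambs in a group, the test of a group's most extreme lamb against its range was not run. *UCHL1* lay near the middle of its arrays in lambs other than +/Cpat, which limits how well its low values are ordered.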
